A study of Mus musculus with 12 samples.

Results

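The genes described here are 10 killer cell lectin-like receptor genes outside the Ly49 family: Klrc1, Klrc2, Klrc3, Klrd1, Klrk1, Klre1, Klri1, Klri2, Klrb1c and Klrg1. They were chosen by name, with earlier results of these data known, and found by their mouse symbols. All 10 were present among the 52636 gene identifiers counted and among the 14173 genes tested. The data were 12 QuantSeq libraries, which read the 3′ ends of transcripts, from tumor-infiltrating CD8+ T cells that had been separated by GFP. The tumor was AT3ova, an ovalbumin-expressing mouse mammary carcinoma. Every host was a female C57BL/6 A2AR eGFP reporter mouse of 6 to 16 weeks, in which a bacterial artificial chromosome transgene places eGFP under the regulatory sequences of Adora2a, the gene of the adenosine receptor A2AR. Tumors were started with 500000 cells under the skin and cells were sorted at day 21. The 4 conditions were non-treated GFP+, non-treated GFP-, anti-PD-L1 GFP+ and anti-PD-L1 GFP-, and anti-PD-L1 (clone 10F.9G2) was given at days 14 and 18. Each condition had 3 libraries, KT13, KT15 and KT17, then KT14, KT16 and KT18, then KT19, KT21 and KT23, then KT20, KT22 and KT24, and each library pooled 3 mice.

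These receptors are type II membrane proteins with a lectin-like domain, known best from NK cells and also carried by activated CD8+ T cells. The NKG2 chains of the Klrc genes pair with CD94, the product of Klrd1, and bind the MHC class Ib molecule Qa-1. NKG2A, the product of Klrc1, is inhibitory and recruits the phosphatase SHP-1, whereas the NKG2C and NKG2E chains of Klrc2 and Klrc3 signal through the ITAM adaptor DAP12. NKG2D, the product of Klrk1, is an activating receptor for stress-induced ligands and uses the adaptor DAP10. Klre1 pairs with either the inhibitory Klri1 or the activating Klri2, Klrg1 is an inhibitory cadherin receptor of late effector cells, and Klrb1c encodes NK1.1, an activating receptor that defines NK cells in C57BL/6 mice.

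All 10 genes lie on chromosome 6 (GRCm38, GENCODE vM21). Klrb1c (ENSMUSG00000030325) spans chr6:128778485-128789215 on the minus strand. The 8 genes from Klre1 to Klri2 follow each other within 162580 bases, chr6:129577905-129740484, and Klrg1 lies apart at chr6:122270596-122282882. Within the stretch Klre1 and Klrd1 are on the plus strand, and Klrk1, Klrc3, Klrc2, Klrc1, Klri1 and Klri2 are on the minus strand. Klrc1 (ENSMUSG00000030167) spans chr6:129666015-129678973, Klrc2 (ENSMUSG00000052736) chr6:129647496-129660689 and Klrc3 chr6:129639064-129643337. The other members span chr6:129591782-129598775 (Klrd1), chr6:129577905-129585827 (Klre1), chr6:129610323-129623864 (Klrk1), chr6:129697218-129717132 (Klri1) and chr6:129729041-129740484 (Klri2).

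RefSeq promoter windows on GRCm38.p6, from 250 bases before to 50 bases after a start site, were at hand for 7 of the members, without Klrd1, Klrg1 and Klri2. Those of Klrb1c (chr6:128788592-128788891), Klrc1 (chr6:129678924-129679223), Klrc2 (chr6:129660507-129660806) and Klrc3 (chr6:129643239-129643538) are printed because the contrast of Klrb1c with the Klrc genes, and of Klrc2 with its near copy Klrc3, runs through the results. All are on the minus strand and are read 5′ to 3′. Capitals mark TGTGGT or its reverse complement ACCACA, the core of the RUNX motif, and TGACG or its reverse complement CGTCA, a CRE half-site.
Klrb1c: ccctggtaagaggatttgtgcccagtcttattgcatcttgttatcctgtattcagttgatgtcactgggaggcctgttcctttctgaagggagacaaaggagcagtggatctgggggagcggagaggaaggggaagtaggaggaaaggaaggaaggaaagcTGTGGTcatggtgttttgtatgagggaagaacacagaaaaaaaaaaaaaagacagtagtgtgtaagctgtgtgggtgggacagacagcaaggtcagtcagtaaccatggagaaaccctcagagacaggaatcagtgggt
Klrc1: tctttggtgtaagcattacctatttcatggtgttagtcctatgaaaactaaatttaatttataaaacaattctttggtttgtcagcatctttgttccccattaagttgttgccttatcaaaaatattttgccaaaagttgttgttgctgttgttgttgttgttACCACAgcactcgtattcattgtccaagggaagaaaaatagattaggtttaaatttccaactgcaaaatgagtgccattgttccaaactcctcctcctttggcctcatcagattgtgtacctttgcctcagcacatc
Klrc2: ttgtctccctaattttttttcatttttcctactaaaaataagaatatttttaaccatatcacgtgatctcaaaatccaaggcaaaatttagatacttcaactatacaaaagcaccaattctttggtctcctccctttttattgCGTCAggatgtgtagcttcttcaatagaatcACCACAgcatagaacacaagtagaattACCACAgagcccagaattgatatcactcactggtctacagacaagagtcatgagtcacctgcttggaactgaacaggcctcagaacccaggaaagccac
Klrc3: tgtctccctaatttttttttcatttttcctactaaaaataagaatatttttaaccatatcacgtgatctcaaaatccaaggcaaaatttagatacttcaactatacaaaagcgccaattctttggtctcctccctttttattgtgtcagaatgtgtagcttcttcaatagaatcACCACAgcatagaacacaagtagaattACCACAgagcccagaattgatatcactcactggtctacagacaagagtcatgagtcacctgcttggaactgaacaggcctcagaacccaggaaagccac
The RUNX core was found on either strand in windows of 6 of the 7 members, all but Klri1, and in 16.8% of the 32851 promoter windows of the same length. It began 89 bases before the start site in Klrb1c and 87 bases before it in Klrc1, on opposite strands. The CRE half-site was found only in the Klrc2 windows among the members and in 20.8% of all windows. TTCNNNGAA, a palindrome and the STAT core, was in no member window and in 8.3% of all windows, and GGTGTGA, the T-box core, was in no member window and in 3.98% of all. Klrc2 and Klrc3 were identical at 296 of 299 aligned bases (99%). These matches describe letters only.

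Library totals ranged from 11292699 to 19023900 counts. KT13 and KT21, both GFP+, stood apart from the others, with a median Spearman correlation to the other libraries of 0.941 and 0.935 against 0.967 to 0.977. Results are therefore given with all 12 libraries and, for the main changes, with the 10 left without them. Adora2a, the reporter's gene, was at 60.2 to 67.3 CPM in non-treated GFP+ and 19.7 to 24.3 in non-treated GFP- libraries, and at 66.3 to 111.4 against 26 to 34.6 after anti-PD-L1, in the order of the labels. Cd8a was at 798.7 to 1359.8 CPM in all libraries and Cd4 at no more than 0.919. Foxp3, the other gene of the CD4 T cell list, was at 11.2 to 22.5 CPM in non-treated GFP+ and 15.1 to 23.5 in non-treated GFP- libraries. After anti-PD-L1 it was at 6.44 to 15.3 against 15.9 to 24.9 CPM, lower without overlap, as were 5.33% of all genes. Its log2 fold change there was -0.78 (-1.08 with 10 libraries), and edgeR called it in no comparison. CPM are counts scaled to the library total after TMM normalization throughout. Reads come from transcript ends, so no length scaling was applied. In sorted pools such as these, fewer cells of a type and less RNA per cell cannot be told apart.

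The members covered a wide range of levels. On the 3′-end CPM scale Klrc1 (515.9 to 1744.5 CPM) and Klrc2 (447.6 to 1368) were the most abundant in all 12 libraries, with Klrc1 above Klrc2 in each. Klrd1 (154 to 769.7 CPM) and Klrk1 (222 to 411.8) came next, followed by Klre1 (42 to 189), Klri2 (29.1 to 83) and Klrb1c (13.8 to 51.3). Klrg1 was low at 0.794 to 7.96 CPM. Klrc3 and Klri1 were near the counting limit, with at most 15 and 35 counts in a library, so no fold change from the model is given for them.

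**Figure D1:**
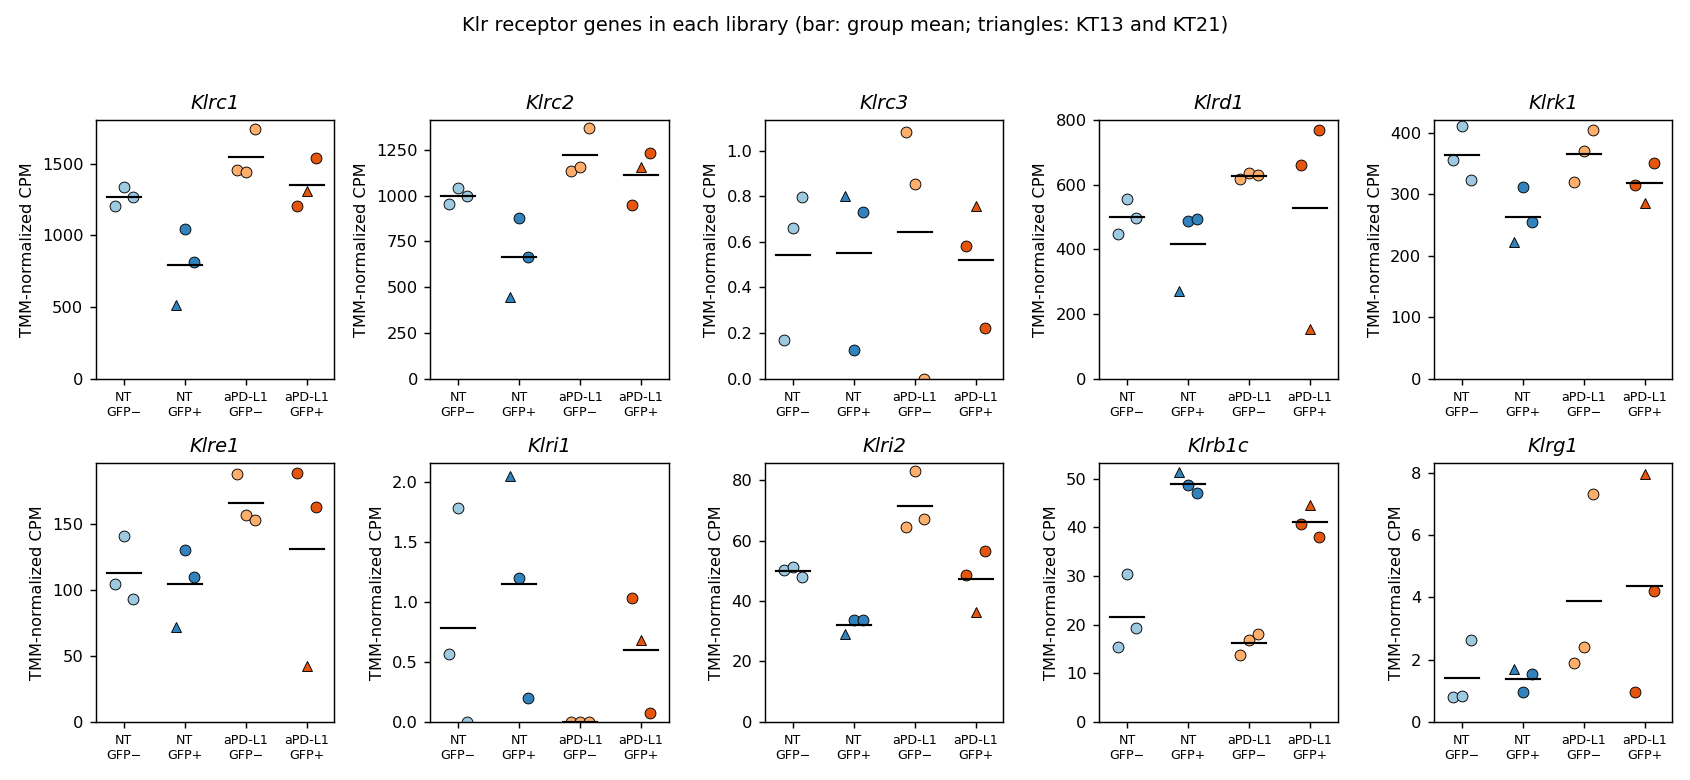
TMM-normalized CPM of the 10 receptor genes (linear axes from 0) in each library, by condition (NT, non-treated; aPD-L1, anti-PD-L1); points are libraries, triangles are KT13 and KT21, and bars are means of 3 libraries. Klrb1c is at 38 CPM or more in every GFP+ library and at 30.3 CPM or less in every GFP- library, while Klrc1 and Klrc2 are lowest in non-treated GFP+ libraries.

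Klrb1c, the NK1.1 gene, was higher in GFP+ than in GFP- cells with and without treatment. With all 12 libraries and the main filter on low counts it was the 1 member that edgeR called, in the average over treatments. In non-treated cells it was at 51.3, 48.7 and 47 CPM in GFP+ libraries and at 15.4, 30.3 and 19.2 CPM in GFP- libraries. After anti-PD-L1 it was at 40.7, 44.5 and 38 CPM in GFP+ libraries and at 13.8, 16.8 and 18.1 CPM in GFP- libraries. The GFP+ and GFP- libraries did not overlap in either treatment, nor across treatments, and KT16 was the highest GFP- library. The means were 49 ± 2.14 against 21.6 ± 7.73 CPM without and 41.1 ± 3.28 against 16.2 ± 2.2 CPM with treatment (SD, n = 3). Averaged over both treatments the log2 fold change was 1.26 (SE 0.158), a fold of 2.39, with an adjusted p of 0.00406 (edgeR quasi-likelihood test, Benjamini-Hochberg adjustment). In that comparison 44 of 14173 genes (0.31%) were called, 21 of them higher (0.148%), and Klrb1c was the single member among them. At an unadjusted p under 0.05 there were 6 members, among them Klri1 near the counting limit, against 8.18% of all genes. Without KT13 and KT21 the averaged change of Klrb1c was 1.21 (SE 0.153, edgeR adjusted p = 7.16e-05). Not overlapping and higher in both treatments, as Klrb1c was, were 0.811% of all genes.

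Within non-treated cells the Klrb1c log2 fold change was 1.18 (SE 0.222) with an adjusted p of 0.157 in the edgeR test, which did not pass. Only 1 of 14173 genes (0.00706%) was called in this comparison, Adora2a itself. None of the 10 members was called there, and 5 had an unadjusted p under 0.05 against 6.05% of all genes. DESeq2 called 1 member, Klrb1c (adjusted p = 0.00141), among 53 of 14173 genes. Within anti-PD-L1 cells the Klrb1c log2 fold change was 1.34 (SE 0.225) with an adjusted p of 0.0706. There 4 genes (0.0282%) and none of the members were called, and 3 members (Klrb1c, Klri2 and Klri1 near the counting limit) had an unadjusted p under 0.05 against 4.08% of all genes. Of the members DESeq2 again called Klrb1c alone (adjusted p = 8.3e-05), among 47 of 14173 genes. With no filter on low counts edgeR called Klrb1c in both comparisons (adjusted p = 5.27e-04 and 3.44e-05), where 78 and 49 of 26418 genes were called. In non-treated cells the SE of Klrb1c was then 0.234, against 0.222 with the filter. Its unadjusted edgeR p nevertheless went from 1.11e-04 to 5.78e-07, so the smaller p came without a smaller SE. Without KT13 and KT21 edgeR called Klrb1c in both, at 1.14 (SE 0.214, adjusted p = 0.0159) in non-treated cells, where 0.339% of 14747 genes were called, and at 1.28 (SE 0.218, adjusted p = 0.00764) after anti-PD-L1, where 0.17% were. The interaction of GFP and treatment for Klrb1c was 0.16 on the log2 scale (SE 0.312, edgeR adjusted p = 1), so a difference between the treatments was not shown.

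The summed level of NK cell genes was higher in every GFP+ library as well. The summed CPM of the 6 other genes of the NK cell list (Ncr1, Klra8, Klra4, Klra9, Fcer1g and Eomes) was 174.7 to 202.7 in non-treated GFP+ and 112.5 to 128.5 in non-treated GFP- libraries, and 149.3 to 223.5 against 79.9 to 105.9 after anti-PD-L1. Fcer1g, which T cells and macrophages can also express, made up most of the sum. Averaged over both treatments, the 7 genes of the list, Klrb1c included, had a median log2 fold change of 1.21 for GFP. Over all genes it was 0. In edgeR 5 of the 7 had an unadjusted p under 0.05, against 8.18% of all genes. Of the 7 genes of the list, Klrb1c and Fcer1g were called higher in GFP+ cells averaged over both treatments, and with 10 libraries Klra9 too, at 1.24 on the log2 scale (edgeR adjusted p = 0.00593). Ncr1, the defining NK receptor NKp46, was low, at 3.29, 6.65 and 5.58 CPM in non-treated GFP+ and at 5.84, 3.65 and 3.67 in non-treated GFP- libraries, which overlapped. After anti-PD-L1 Ncr1 was at 3.54, 5.31 and 5.11 CPM in GFP+ and at 2.1, 1.21 and 2.72 in GFP- libraries, and its log2 fold change of 1.21 (SE 0.42) was not called (edgeR adjusted p = 0.993). Eomes, which CD8+ T cells share with NK cells, was at 26.5 to 39.3 CPM in all libraries, and Zbtb16, the NKT cell factor, was at no more than 0.735 CPM. The gamma-delta T cell genes Trdc, Tcrg-C1 and Tcrg-C2 summed to 131.3 to 253 CPM in non-treated GFP+ and 177.1 to 268.1 in non-treated GFP- libraries, and to 114.2 to 263.6 against 221.2 to 345.8 after anti-PD-L1, with overlap in both. Trdc alone was at 8.01, 10.1 and 7.37 CPM in non-treated GFP+ and 2.95, 3.5 and 3.25 in non-treated GFP- libraries, without overlap, and its log2 fold change of 1.39 (SE 0.434) was not called (edgeR adjusted p = 0.596). After anti-PD-L1 Trdc was at 3.61, 8.27 and 3.04 CPM in GFP+ and 3.11, 7.13 and 3.02 in GFP- libraries, which overlapped. The cells had been sorted as CD8+ T cells, and the part of NK cells or gamma-delta T cells in the Klrb1c difference was not tested.

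**Figure D2:**
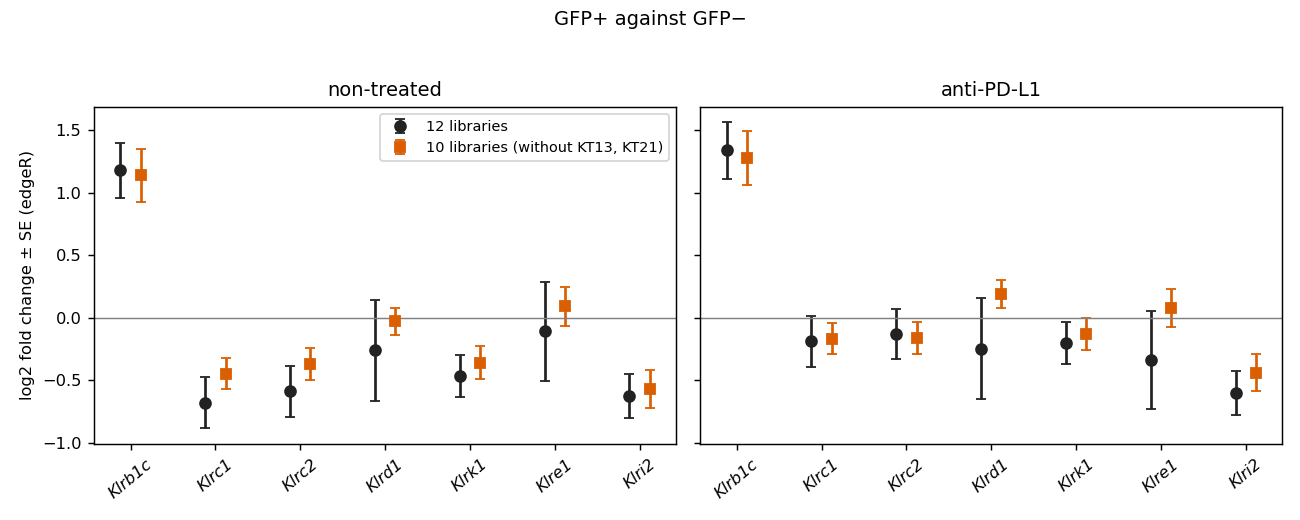
Log2 fold change of GFP+ against GFP- cells (edgeR, bars are ± 1 SE) for 7 members in non-treated and anti-PD-L1 cells, with 12 libraries (black circles) and 10 libraries (orange squares). Klrb1c lies above 1 in all 4 fits; Klrc1, Klrc2, Klrk1 and Klri2 lie below 0 in all 4, and without KT13 and KT21 Klre1 changes side in both treatments and Klrd1 in anti-PD-L1 cells.

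Klrc1 and Klrc2, the NKG2A and NKG2C genes, were lower in every non-treated GFP+ library than in any non-treated GFP- library, although the difference did not pass the test. In non-treated cells Klrc1 was at 515.9, 1047 and 811.4 CPM in GFP+ libraries and at 1204.5, 1338 and 1266.1 CPM in GFP- libraries. All 3 GFP+ libraries were below all 3 GFP- libraries, and KT13 was the lowest. The log2 fold change was -0.68 (SE 0.207), with an unadjusted p of 0.00536 and an adjusted p of 0.566 in edgeR, so it was not called. With 10 libraries it was -0.45 (SE 0.125, adjusted p = 0.158), and DESeq2 called it on those 10 libraries (adjusted p = 0.0481), among 131 of 14747 genes. Klrc2 was at 447.6, 878.6 and 663.4 CPM in GFP+ and at 954.2, 1044.4 and 997.7 CPM in GFP- libraries, with the same order of libraries and a log2 fold change of -0.59 (SE 0.202, edgeR adjusted p = 0.661). With 10 libraries it was -0.37 (SE 0.128, edgeR adjusted p = 0.319). Leaving out 1 library moved Klrc1 from -0.94 (without KT15) to -0.45 (without KT13), and Klrc2 from -0.85 to -0.37 without the same libraries.

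After anti-PD-L1 the GFP groups of both genes overlapped. Klrc1 was then at 1207.3, 1312.4 and 1542.6 CPM in GFP+ and at 1456.1, 1443.7 and 1744.5 in GFP- libraries, with a log2 fold change of -0.19 (SE 0.206). Klrc2 was at 949.8, 1158.1 and 1235 CPM in GFP+ and at 1136.1, 1158.8 and 1368 in GFP- libraries, with a log2 fold change of -0.13 (SE 0.202). The interaction, the difference between the treated and the non-treated log2 fold change, was 0.49 (SE 0.292) for Klrc1 and 0.46 (SE 0.285) for Klrc2, and the edgeR adjusted p was 1 for both. No member and no gene of 14173 (0%) was called for the interaction by edgeR, no member had an unadjusted p under 0.05 with 12 libraries against 2.08% of all genes, and DESeq2 called no member and no gene.

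Klrc1 and Klrc2 followed each other closely. Over the 12 libraries the Pearson correlation of their log2(CPM + 0.5) was 0.994, and 0.996 without KT13 and KT21, given as a description since the libraries share the same conditions. The ratio of Klrc1 to Klrc2 CPM was 1.13 to 1.28 in the 12 libraries. The genes also share sequence. Of the 75-base windows, the read length, in the last 500 bases of their protein-coding transcripts, 29.5% in Klrc1 and 13.1% in Klrc2 also occur in another gene, mostly in each other. In the longest transcript of each the share was 42% for Klrc1 and 0% for Klrc2. How reads with several matches were counted is not given in the sources used here, and the part of shared reads in the likeness was not tested.

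Klrc3, the NKG2E gene, hardly gave reads, and its promoter window is nearly that of Klrc2. It had 9, 2 and 11 counts in non-treated GFP+, 3, 13 and 13 in non-treated GFP-, 9, 10 and 3 in anti-PD-L1 GFP+ and 15, 12 and 0 in anti-PD-L1 GFP- libraries. In every group some library was at or below 3 counts, and no group stood apart. In KT24, with no read on Klrc3, 18120 reads were counted on Klrc2. A count of 0 in KT24 allows up to 0.226 CPM, a limit that covers counting error only.

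Klrd1, the CD94 gene whose product pairs with the NKG2 chains of the Klrc genes, was called for GFP by edgeR in neither fit. It was at 269.9, 487.1 and 495.2 CPM in non-treated GFP+ and at 448.2, 556.3 and 496.9 CPM in non-treated GFP- libraries, which overlapped. After anti-PD-L1 it was at 661.9, 154 and 769.7 CPM in GFP+ and at 616.9, 636.5 and 630.9 CPM in GFP- libraries. KT13 and KT21 were the lowest libraries of all, and without them the sign of the difference after anti-PD-L1 turned, from a log2 fold change of -0.25 (SE 0.404) to 0.19 (SE 0.111), called in neither fit. Without KT21 the remaining GFP+ libraries lay above all GFP- libraries. Klre1, which lies next to Klrd1 on the same strand, was low in the same 2 libraries. It was at 72.1, 130.4 and 110.3 CPM in non-treated GFP+, 104.7, 141 and 92.9 in non-treated GFP-, and after anti-PD-L1 at 189, 42 and 162.8 CPM in GFP+ and 188.5, 156.9 and 153.6 CPM in GFP- libraries. The Pearson correlation of Klrd1 and Klre1 over the libraries was 0.952, and 0.815 without KT13 and KT21, whereas Klrd1 with Klrc1 gave 0.442 and 0.642. In KT21 Klrc1 (1312.4 CPM) and Klrc2 (1158.1 CPM) were not low.

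Klrk1, the NKG2D gene, was at 222, 312.9 and 255.8 CPM in non-treated GFP+ and at 356.8, 411.8 and 322.9 CPM in non-treated GFP- libraries. The groups did not overlap, but the nearest libraries, KT15 and KT18, were close, and the log2 fold change of -0.47 (SE 0.168) was not called (edgeR adjusted p = 0.706). After anti-PD-L1 it was at 315.2, 286.6 and 351.8 CPM in GFP+ and at 319.5, 371.2 and 404.9 CPM in GFP- libraries, which overlapped. There it differed by -0.2 on the log2 scale (SE 0.167).

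Klri2, the activating partner of Klre1, was the member whose groups were separated in every comparison. It was at 29.1, 33.6 and 33.7 CPM in non-treated GFP+ and at 50.3, 51.4 and 48 CPM in non-treated GFP- libraries. After anti-PD-L1 it was at 48.7, 36.5 and 56.7 CPM in GFP+ and at 64.5, 83 and 67.2 CPM in GFP- libraries. It was thus lower in GFP+ cells in both treatments and higher after anti-PD-L1 in both GFP groups, without overlap in any of the 4, as were 9 of the 14173 genes (0.0635%), 34 of 14747 (0.231%) with 10 libraries. Only this pattern of signs, the one that Klri2 shows, was counted, and the 4 comparisons share their groups. The share is therefore lower than that of all genes separated in any pattern. Not overlapping and lower in GFP+ cells of both treatments were 1.03% of all genes. On the log2 scale Klri2 differed by -0.63 (SE 0.177) between GFP groups without treatment, by -0.6 (SE 0.177) with it, and by -0.62 (SE 0.125) averaged over both. The averaged change missed the threshold with 12 libraries (edgeR adjusted p = 0.0562). With the same 12 libraries it was called by edgeR with at least 10 counts in every library (-0.6, adjusted p = 0.0464) and with no filter (-0.62, adjusted p = 0.00919), and by DESeq2 (-0.6, adjusted p = 0.00258). All genes called under these settings were 56 of 10862, 204 of 26418 and 158 of 14173. The averaged change of Klri2 is the value meant here. By edgeR it also passed with 10 libraries at -0.51 (SE 0.107, adjusted p = 0.0151), where 1.08% of genes were called.

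Klri1, the inhibitory counterpart of Klri2, had 23, 19 and 3 counts in non-treated GFP+, 10, 35 and 0 in non-treated GFP- and 16, 9 and 1 in anti-PD-L1 GFP+ libraries. All 3 anti-PD-L1 GFP- libraries had 0 counts. Summed over the libraries of a group, Klri1 was at least 8.44-fold higher in anti-PD-L1 GFP+ than the limit of 3 counts that 0 counts allow in the anti-PD-L1 GFP- group, at least 8.02-fold without KT21 and at least 5.13-fold without KT19. The non-treated GFP- libraries were at least 11.5-fold above the same limit, and at least 4.03-fold without KT16. The spread within groups was as wide as the range between them, with 1 or 0 counts in KT23 and KT18. The limit covers counting error only and not this spread, so these folds set no lower bound on a difference between conditions. Klrg1 had 14 to 105 counts per library. It was at 1.69, 0.95 and 1.53 CPM in non-treated GFP+, 0.794, 0.812 and 2.63 in non-treated GFP-, 0.966, 7.96 and 4.22 in anti-PD-L1 GFP+ and 1.88, 2.42 and 7.32 in anti-PD-L1 GFP- libraries, with overlap in every comparison.

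In counts of members, Klrc1, Klrc2, Klrk1 and Klri2 were lower without overlap in non-treated GFP+ cells, 4 of 10 against 6.63% of all tested genes, and Klrb1c was higher, 1 of 10 against 6.19%. After anti-PD-L1 only Klri2 was lower without overlap (background 5.33%) and Klrb1c was higher (5.31%). With 10 libraries, and thus 2 GFP+ libraries, Klrd1 was higher without overlap as well. The share of all genes is not given for that set, so Klrd1 is not counted as separated there. Klri1 counts above the 0 of the GFP- libraries rest in KT23 on 1 count, under the limit of 3 counts, so Klri1 is not counted as separated. The median log2 fold change of the 10 members was -0.19 without and -0.2 with treatment, against 0 over all genes tested in both, and it is the same with Klri1 at its lower bound after anti-PD-L1. The genes within the cluster are neighbours and, for the Klrc genes, share sequence, so the members are not independent of each other. Cd8a and Cd8b1, the CD8 coreceptor genes, were also lower in non-treated GFP+ cells. Cd8a was at 830.9, 860.4 and 798.7 against 1188.2, 1165.8 and 1088.6 CPM, and its log2 fold change of -0.47 was not called with 12 libraries (edgeR adjusted p = 0.46) and was called with 10 libraries (SE 0.0991, edgeR adjusted p = 0.038), as was that of Cd8b1 at -0.69 (SE 0.13, adjusted p = 0.0159).

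The contrast of Klrb1c with Klrc1 and Klrc2 was measured as a ratio within each library, which does not depend on the scaling of libraries beyond the added 0.5 CPM. It was proposed with earlier results of these data known, and Klrb1c by itself already separated the GFP groups. The p-values of the ratios therefore describe this separation and are not fresh evidence for it. The ratio of Klrb1c to Klrc1 CPM was 0.0994, 0.0465 and 0.0579 in non-treated GFP+ and 0.0128, 0.0226 and 0.0151 in non-treated GFP- libraries. After anti-PD-L1 it was 0.0337, 0.0339 and 0.0246 in GFP+ and 0.00949, 0.0116 and 0.0104 in GFP- libraries. The GFP+ libraries were all above the GFP- libraries, also across treatments, and the anti-PD-L1 libraries were all below the non-treated libraries of the same GFP group. The log2 ratio was 1.73 higher in GFP+ than in GFP- cells, a fold of 3.32, with p = 0.005 in an exact permutation test, two-sided, over the 400 relabellings of GFP within treatments, the smallest p it can give. The difference of anti-PD-L1 from non-treated libraries within GFP groups was -0.86, also at p = 0.005, and both had an adjusted p of 0.0075 over the 6 ratio tests of this exact permutation.

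Klrb1c over Klrc2 gave the same picture, 1.66 higher in GFP+ cells and -0.84 after anti-PD-L1, both with an adjusted p of 0.0075 in the exact permutation test. As Klrc1 and Klrc2 followed each other closely, this is not independent of the ratio to Klrc1. With 10 libraries the GFP differences were 1.54 over Klrc1 and 1.5 over Klrc2, and the treatment differences were -0.74 and -0.71, each with an adjusted exact permutation p of 0.025. The log2 ratio of Klrc1 to Klrc2 moved little by comparison. GFP+ and GFP- cells differed by -0.08 (adjusted exact permutation p = 0.018; -0.04 and 0.048 with 10 libraries), and anti-PD-L1 and non-treated libraries by 0.01 (exact permutation p = 0.615).

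**Figure D3:**
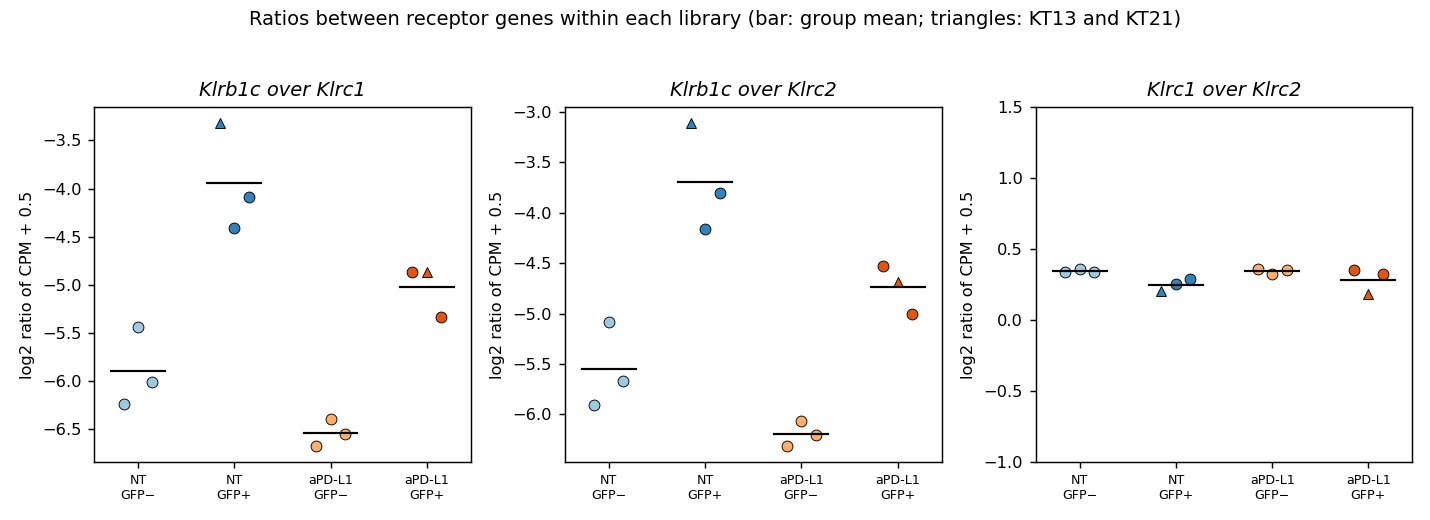
Log2 ratios between receptor genes within each library, computed on CPM + 0.5, by condition; points are libraries, triangles are KT13 and KT21, and bars are means of 3 libraries. Klrb1c over Klrc1 and over Klrc2 are higher in every GFP+ than in every GFP- library, and Klrc1 over Klrc2 stays between 0.18 and 0.36.

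Anti-PD-L1 blocks the ligand of PD-1, and its comparison with non-treated cells asked how the receptors responded. In GFP+ cells the log2 fold change was, for Klrc1, 0.77 (SE 0.207, adjusted p = 0.312), for Klrc2 0.75 (SE 0.203, adjusted p = 0.324) and for Klri2 0.56 (SE 0.178, adjusted p = 0.469) in edgeR. The libraries of these 3 members did not overlap and were higher after treatment, against 4.66% of all genes, and those of Klrb1c were lower (5.67%), where the difference was -0.25 (SE 0.219). With 10 libraries Klrd1, Klrk1 and Klre1 were higher without overlap as well. Each group then held 2 libraries, which separate more easily, and the share of all genes is not given for that set. Klrd1, Klrk1 and Klre1 are therefore not counted as separated there. None of the members was called with 12 libraries, where 2 genes (0.0141%) were. At an unadjusted p under 0.05 there were 4 members against 6.74% of all genes. DESeq2 called none of the members and 93 of 14173 genes. With no filter on low counts edgeR called Klrc1 and Klrc2 (adjusted p = 0.00756 and 0.0142), among 123 of 26418 genes. Without KT13 and KT21, Klrd1 was called by edgeR at 0.54 (SE 0.122, adjusted p = 0.039), where 0.563% of genes were called, and Klrc1 just missed the threshold at 0.57 (SE 0.136, adjusted p = 0.0603).

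In GFP- cells 5 members were higher after anti-PD-L1 without overlap, Klrc1, Klrc2, Klrd1, Klre1 and Klri2, against 6.08% of all genes, and none lower (6.26%). Their log2 fold changes were 0.29 (SE 0.206) for Klrc1, 0.29 (SE 0.202) for Klrc2, 0.33 (SE 0.404) for Klrd1, 0.56 (SE 0.394) for Klre1 and 0.52 (SE 0.176) for Klri2. No member and no gene of 14173 (0%) was called by edgeR. At an unadjusted p under 0.05 there were 2 members (Klri2, and Klri1 against a group at 0 counts) against 3.44% of all genes. DESeq2 called none of the members and 33 of 14173 genes. With 10 libraries 8 members, Klri1 included, had an unadjusted p under 0.05 against 7.22% of all genes and edgeR called none, while 0.373% of genes were called. DESeq2 called Klre1 and Klri2 on the 10 libraries, among 91 of 14747 genes. Across the GFP groups, Klrc1, Klrc2 and Klri2 were higher without overlap in both with 12 libraries, against 0.628% of all genes. With 10 libraries Klrd1 and Klre1 were as well, and the share of all genes is not given for that set. Klrd1 and Klre1 are therefore not counted as separated in both GFP groups.

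The average of both GFP groups was added as a comparison after the data were seen. With 12 libraries 56 genes (0.395%) and none of the members were called by edgeR, and 6 members, Klri1 included, had an unadjusted p under 0.05 against 7.67% of all genes. DESeq2 called Klri2 (0.54, adjusted p = 0.0124), among 181 of 14173 genes. Without KT13 and KT21 edgeR called 5 of the 10 members, all higher, against 1.36% of all genes and 0.665% called higher. The edgeR values were, for Klrc1, 0.43 (SE 0.0874, adjusted p = 0.00916), for Klrc2 0.4 (SE 0.09, adjusted p = 0.0225), for Klrd1 0.44 (SE 0.0787, adjusted p = 0.00288), for Klre1 0.55 (SE 0.109, adjusted p = 0.00658) and for Klri2 0.58 (SE 0.106, adjusted p = 0.00306). Klrb1c went the other way at -0.35 (SE 0.155) and was not called by edgeR (adjusted p = 0.387), nor was Klrk1 at 0.12 (SE 0.0924). These 5 calls were made without the libraries in which Klrd1 and Klre1 were lowest. With all 12 libraries and no filter on low counts edgeR called 223 of 26418 genes, 4 of them members. These were Klrc1 (0.53, adjusted p = 0.00883), Klrc2 (0.52, adjusted p = 0.0129), Klri2 (0.54, adjusted p = 0.0445) and Klrg1 (1.56, adjusted p = 0.0445), and neither Klrd1 nor Klre1 was among them. Klrg1 had the highest log2 fold change with treatment among the members not near the counting limit, at 1.65 (SE 0.764) in GFP+ cells, 1.46 (SE 0.755) in GFP- cells and 1.56 (SE 0.537, unadjusted p = 0.0117) on average, from 14 to 105 counts per library. It was called by edgeR in none of these with the filter (adjusted p = 0.73, 1 and 0.417), nor on average with 10 libraries at 1.26 (SE 0.545, edgeR adjusted p = 0.373), and its libraries overlapped between treatments. Leaving out 1 library moved the Klrg1 log2 fold change from 0.9 (without KT21) to 2.13 (without KT19) in GFP+ cells, from 0.62 (without KT24) to 2.26 (without KT18) in GFP- cells, and from 1.14 (without KT24) to 1.96 (without KT18) on average.

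**Figure D4:**
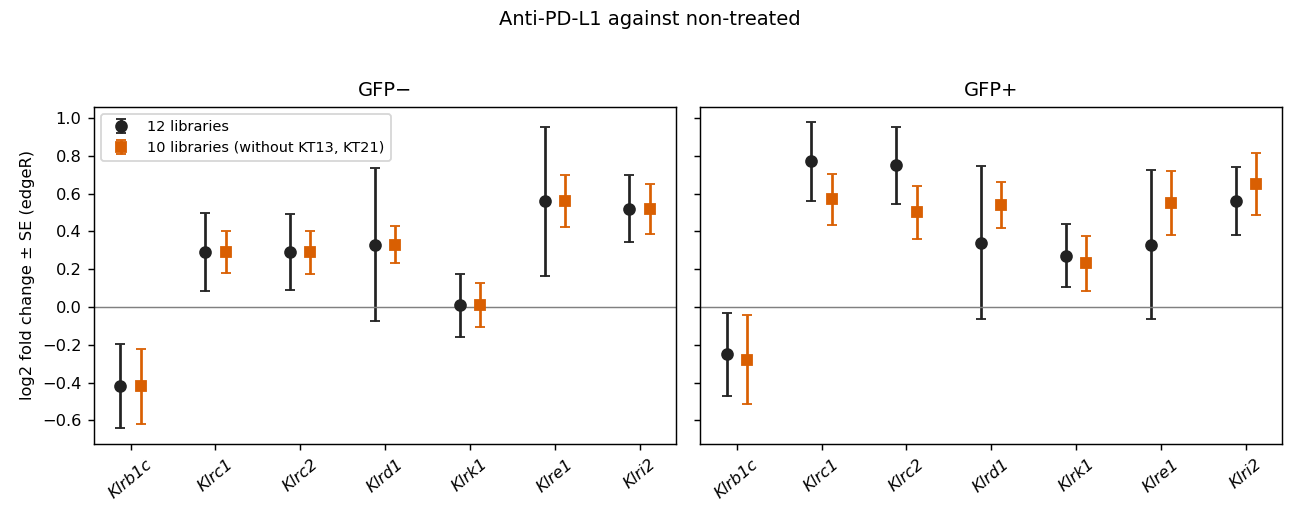
Log2 fold change of anti-PD-L1 against non-treated cells (edgeR, bars are ± 1 SE) for 7 members in GFP- and GFP+ cells, with 12 libraries (black circles) and 10 libraries (orange squares). Klrb1c lies below 0 in all 4 fits, Klrc1, Klrc2, Klrd1, Klre1 and Klri2 lie above 0, and the bars of Klrd1 and Klre1 are wide with 12 libraries.

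Levels of macrophage, tumor epithelium and CD8 genes are given beside these values. With 12 libraries edgeR called 2 macrophage genes, no tumor epithelium gene and no CD8 T cell gene for treatment, averaged over both GFP groups. In the fit of 10 libraries, from which the 5 member calls come, it called 4 of the 10 macrophage genes lower (list median -1.06), 2 of the 8 CD8 T cell genes higher and no tumor epithelium gene. The summed CPM of the 10 genes of the macrophage and monocyte list was 190.6 to 267.5 in non-treated GFP+, 133.6 to 207.4 in non-treated GFP-, 70.2 to 150.1 in anti-PD-L1 GFP+ and 63.6 to 122.2 in anti-PD-L1 GFP- libraries. C1qa and Lyz2 of this list were called lower in the averaged treatment comparison (log2 fold changes of -1 and -1.5, edgeR adjusted p = 0.0317 and 0.0461). The summed CPM of the tumor epithelium genes Epcam, Krt8 and Krt18 was 23.5 to 32 in non-treated GFP+, 15.1 to 29 in non-treated GFP-, 8.37 to 20.2 in anti-PD-L1 GFP+ and 7.84 to 18.4 in anti-PD-L1 GFP- libraries, with a median log2 fold change of -0.87 in the averaged comparison, where edgeR called none of the 3 and all 3 had an unadjusted p under 0.05. Cd8a was at 1149.2, 1340.3 and 1283 CPM in anti-PD-L1 GFP+ libraries, above all 3 non-treated GFP+ libraries, and was called by edgeR with 10 libraries at 0.55 (SE 0.107, adjusted p = 0.0103). The part of any of them in the receptor changes was not tested.

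Among the 25 signalling partners, of which 24 were tested, 2 were called higher and none lower in GFP+ cells averaged over both treatments, and both are ITAM adaptors. Fcer1g, the Fc receptor gamma chain with which NK1.1 signals, was at 122.3, 143.4 and 112.2 CPM in non-treated GFP+ and 70.3, 75.2 and 68.2 in non-treated GFP- libraries, and at 115.4, 153.8 and 92.7 against 68.4, 46.1 and 42.1 CPM after anti-PD-L1. The groups did not overlap in either treatment, and the averaged log2 fold change was 1.02 (SE 0.152, edgeR adjusted p = 0.0102). Tyrobp, the DAP12 gene, was at 24.9, 24.1 and 21.8 CPM in non-treated GFP+ and 17.9, 21.3 and 19.5 in non-treated GFP- libraries, and at 22.2, 19.6 and 20.4 against 9.76, 7.48 and 7.55 CPM after anti-PD-L1. It was low only in the anti-PD-L1 GFP- libraries. Its edgeR difference for GFP on the log2 scale was 0.27 (SE 0.181, adjusted p = 0.893) without and 1.33 (SE 0.187, adjusted p = 0.0298) with treatment, and the interaction of 1.06 (SE 0.259) was not called (unadjusted p = 0.00113, adjusted p = 1).

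The adaptor of NKG2D and the phosphatase of NKG2A showed no call. Hcst, the DAP10 gene, was at 187 to 331.1 CPM and overlapped in every comparison, with an averaged log2 fold change of 0.07 (SE 0.142) for GFP. Ptpn6, the SHP-1 gene, was at 144.2 to 225.1 CPM with an averaged log2 fold change of -0.12 (SE 0.131). Lat, a scaffold of T cell receptor signalling, was at 145.4 to 175 CPM in non-treated GFP+ and 211.8 to 233.7 in non-treated GFP- libraries, and was called lower in GFP+ cells with 10 libraries (averaged log2 fold change -0.51, SE 0.0827, edgeR adjusted p = 0.00142) but not with 12 (adjusted p = 0.269). After anti-PD-L1 Lat was at 156.1, 221.3 and 171.7 CPM in GFP+ and 206.4, 227.7 and 233.1 in GFP- libraries, which overlapped, and its log2 fold change there was not called by edgeR with 12 (-0.28, adjusted p = 0.993) or with 10 libraries (-0.44, adjusted p = 0.226). After anti-PD-L1, Tyrobp was the 1 partner called lower in the comparison averaged over GFP groups (-0.71, SE 0.13, edgeR adjusted p = 0.027). Macrophages also express Tyrobp and Fcer1g. The macrophage and monocyte list had a median log2 fold change of -0.95 in that comparison, with 2 genes called lower, and of 0.34 for GFP averaged over treatments, with none called, and its part in the Tyrobp and Fcer1g differences was not tested.

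**Figure D5:**
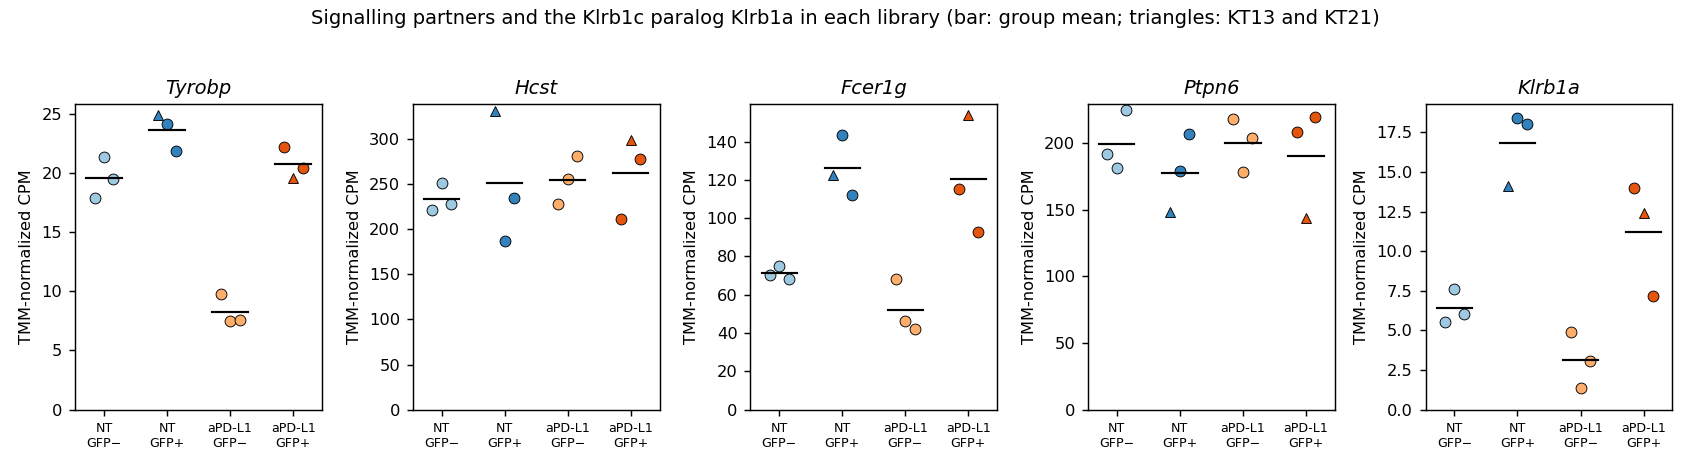
TMM-normalized CPM (linear axes from 0) of the signalling partners Tyrobp, Hcst, Fcer1g and Ptpn6 and of Klrb1a in each library, by condition; points are libraries, triangles are KT13 and KT21, and bars are means of 3 libraries. Fcer1g and Klrb1a are higher in GFP+ libraries of both treatments, Tyrobp is lowest in the anti-PD-L1 GFP- libraries, and Hcst and Ptpn6 overlap between groups.

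Of the 6 other Klr genes listed, 5 were in the table and 3 were tested. Klrb1a, a close relative of Klrb1c, was called higher in GFP+ cells averaged over both treatments, at a log2 fold change of 1.61 (SE 0.272, edgeR adjusted p = 0.0222). It was at 14.1, 18.4 and 18 CPM in non-treated GFP+ and 5.56, 7.61 and 6.06 in non-treated GFP- libraries, and at 14, 12.4 and 7.18 against 4.92, 1.35 and 3.1 CPM after anti-PD-L1. The groups did not overlap in either treatment. In Klrb1c, 13.7% of the 75-base windows near transcript ends occur in another gene, mostly in the annotated gene Gm44511, which overlaps it on the same strand and had no count in any library. In its longest transcript the share was 0%. Klrb1b and Klrb1f, the other 2 tested, were not called.

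Of the 16 ligand genes listed, 13 were in the table and 5 were tested, and none was called in any comparison with 12 libraries. At an unadjusted p under 0.05 there was at most 1 of the 5 in a comparison. H2-T23, the Qa-1 gene whose product is bound by NKG2A with CD94, was at 5.61 to 20.8 CPM, with an averaged log2 fold change of -0.41 (SE 0.251, edgeR adjusted p = 0.708) for GFP. Its libraries overlapped in every comparison. Cdh1, a cadherin gene of the list, was at 126.3 to 178.2 CPM in anti-PD-L1 GFP+ and 191.5 to 295.6 in anti-PD-L1 GFP- libraries. It was thus lower without overlap, as were 5.33% of all genes, and was not called. In non-treated cells Cdh1 was at 177.8 to 272.4 in GFP+ against 216.3 to 295 CPM in GFP- libraries, which overlapped.

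The genes whose log2(CPM + 0.5) over the 12 libraries was most like that of Klrb1c were Trib2 (Pearson r 0.944), Klra7 (0.926) and Bmp7 (0.925), and these values were 0.93, 0.927 and 0.919 without KT13 and KT21. Klra7, a Ly49 receptor gene of the same chromosome, was at 100, 107.5 and 108.2 CPM in non-treated GFP+ and 34.9, 53.4 and 49.4 in non-treated GFP- libraries, and at 96.7, 74.9 and 89.5 against 34.9, 37.5 and 23.1 CPM after anti-PD-L1. For Klrc1 and for Klrc2 the most alike genes were Arl5a (0.943 and 0.949), S100a13 (0.935 and 0.943) and Dpf2 (0.93 and 0.931). In the 10 libraries these fell to between 0.8 and 0.883, and KT13 and KT21 thus carried part of the likeness. All are descriptions over libraries that share conditions. Klrb1c with Klri2 gave -0.796 and Klrb1c with Klrc1 -0.588 over the 12 libraries.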

How the data were processed

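The authors sequenced QuantSeq 3′ libraries with 75-base single-end reads, trimmed them with cutadapt (1.7 in the submitters' processing notes), aligned them to mm10 with HISAT2 and counted reads per gene with featureCounts (Subread 1.6.4 in those notes). The deposited values are these raw counts per Ensembl gene, without molecular identifiers. The strand setting, the treatment of reads with several matches and the annotation release are not given in the sources used here. Symbols from GENCODE vM21 matched 52403 of 52636 identifiers. The members and all lists were chosen with earlier results of these data known.

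Groups followed the sample labels. The study's legends give fewer GFP+ libraries for its own GFP comparison than were deposited, whereas all 12 libraries were the main data here. Counts were normalized by TMM, filtered by filterByExpr and tested with the quasi-likelihood F test of edgeR 4.0.16 (R 4.3.3) in 1 fit over the 4 conditions, with Benjamini-Hochberg adjustment over all genes tested and a threshold of 0.05, and the code was tested on simulated data. Each library is a pool of 3 mice, so p-values measure the spread between pools. No 2 libraries of a group agreed within sampling noise (chi-square per degree of freedom of 11.9 or more). Ratios and correlations used log2(CPM + 0.5). Ratio differences were tested by two-sided exact permutation of GFP within treatment or of treatment within GFP group. All members were described, and of other genes Adora2a, Tyrobp, Hcst, Fcer1g, Ptpn6, H2-T23, list genes called in the main fit of 12 libraries, markers, and the 3 genes most correlated with Klrb1c, Klrc1 and Klrc2. Of the list genes called only with 10 libraries, some were described and others only counted. Klrb1b, Klrb1f and Cdh1 were named after their values were seen. Alternatives were the 10 libraries without KT13 and KT21, upper quartile normalization, other filters, fits of single comparisons, DESeq2 1.42.0, a pseudocount of 5 and leaving out each library. Counting limits of 0 counts are 3 counts and cover counting error only.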

Additional observations from a re-analysis of the deposited data

How the results depend on the processing

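The averaged GFP difference of Klrb1c was called in all 12 fits that left out 1 library (1.16 to 1.42 on the log2 scale, edgeR adjusted p from 0.0012 to 0.0224), as were the differences in the Klrb1c ratios by the exact permutation test (adjusted p from 0.0075 to 0.015). Those of Klrb1c over Klrc1 ranged from 1.58 to 1.85 for GFP and from -0.98 to -0.7 for treatment, and those of Klrb1c over Klrc2 from 1.51 to 1.77 and from -0.96 to -0.7. The GFP difference of Klrc1 over Klrc2 ranged from -0.09 to -0.05 and lost its call in 2 of the 12, and its treatment difference ranged from 0 to 0.04. The cause of the changes listed next was not tested. The number of members called for GFP in non-treated cells was 0, and 1 without KT13 and KT21, 1 with no filter beyond 1 count, 1 with DESeq2 and 3 with DESeq2 on those 10 libraries. All genes called went from 1 to 50, 78, 53 and 131 under these settings. In anti-PD-L1 cells the number of members went from 0 to 1 under each of the 4 settings, and genes from 4 to 25, 49, 47 and 64. Averaged over treatments it went from 1 to 2, 2, 2 and 3, and to 2 with at least 10 counts in every library, and genes from 44 to 159, 204, 158 and 256, and 56. For treatment in GFP+ cells the members went from 0 to 1 on 10 libraries, 2 without the filter and 3 with DESeq2 on 10 libraries, with 83, 123 and 142 genes. For treatment in GFP- cells they went to 2 with DESeq2 on 10 libraries, with 91 genes. For the average over GFP groups they went from 0 to 5 on 10 libraries, 4 without the filter, 1 with DESeq2 and 5 with both changes, with 201, 223, 181 and 301 genes.

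Leaving out 1 library, members called were 0 to 1 for GFP after anti-PD-L1 (Klrb1c without KT16), 1 to 2 averaged over treatments (Klri2 added without KT23), 0 to 1 for the averaged treatment (Klri2 without KT21) and 0 otherwise. The numbers of all genes called in these fits are not given here, so these member counts have no background. Klrb1c ranged from 0.98 to 1.49 without and from 1.26 to 1.44 with treatment. Signs turned only for values that were not called. Without KT13 and KT21, by edgeR and by DESeq2, Klre1 was at 0.09 and 0.1 for GFP without treatment, 0.08 and 0.08 with it and 0.09 and 0.09 on average. Klrd1 was at 0.19 and 0.18 in anti-PD-L1 cells and 0.08 and 0.08 on average, and Klrg1 at -0.58 and -0.59 and at -0.38 and -0.39. Klrg1 in non-treated cells was at 0 by upper quartile, and Klrk1 for treatment in GFP- cells was at -0.01 by upper quartile and 0 with at least 10 counts in every library. Among fits without 1 library the ranges that crossed 0 were, for GFP in non-treated cells, -0.31 to 0.09 (Klre1) and -0.31 to 0.78 (Klrg1). For GFP after anti-PD-L1 they were -0.61 to 0.19 (Klrd1), -0.7 to 0.08 (Klre1) and -0.58 to 1.04 (Klrg1), and on average -0.3 to 0.51 (Klrg1). For treatment in GFP+ cells they were -0.03 to 0.78 (Klrd1) and -0.03 to 0.76 (Klre1), and in GFP- cells -0.07 to 0.12 (Klrk1). No paired analysis was made because the labels give no replicate number that groups share. Counts of at most 35 limit Klrc3 and Klri1.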
